A study of Mus musculus with 6 samples.

Results

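Phkb and other genes of glycogen metabolism were examined as a group of 10 genes. They include the phosphorylase kinase subunit genes Phka1, Phka2, Phkb, Phkg1 and Phkg2 and the glycogen phosphorylase genes Pygb, Pygl and Pygm. The rest are the glycogen synthase gene Gys1 and the branching enzyme gene Gbe1. A probe set is the set of oligonucleotides that gives a transcript a single value. The 10 genes were chosen by gene name, and every probe set paired with only 1 of these symbols was kept. This gave 16 probe sets for 10 of the 18193 genes named on the array. Cells of GC1-Spg, an immortalized mouse line derived from spermatogonia, had received 100 nM siRNA against the noncoding RNA mrhl (3 samples) or 100 nM scrambled siRNA (3 samples), and RNA was collected 44 h after transfection. All samples were of the same line and all were transfected, the sample names call them biological replicates, and untransfected cells were not analysed here. Each sample had its own 1-colour Affymetrix array, and values are on the log2 scale, so a difference of 1 is a 2-fold difference.

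Glycogen is the branched glucose store of animal cells. Glycogenin primes the chain, glycogen synthase lengthens it from UDP-glucose and the branching enzyme adds side chains; glycogen phosphorylase removes glucose from the ends. Phosphorylase kinase, built of alpha, beta, catalytic gamma and calmodulin (delta) subunits, phosphorylates glycogen phosphorylase and so switches it on in response to calcium and to protein kinase A. The beta subunit has the single gene Phkb, whereas alpha and gamma each have a form best known from muscle (Phka1, Phkg1) and a form best known from liver (Phka2, Phkg2, the last also expressed in testis). mrhl lies within an intron of Phkb, which makes Phkb the host gene of the silenced RNA. The question here is whether siRNA against mrhl altered the host transcript and those of the other glycogen genes.

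The arrays were alike in level, with medians from 5.19 to 5.30 on the log2 scale. No probe set was paired with mrhl, so its silencing was not checked here. Of 20 germ cell markers 18 had a probe set and 12 were tested. Zbtb16 and Gfra1, genes of undifferentiated spermatogonia, were read through their brightest probe sets. Their means were 5.18 and 5.89 after mrhl siRNA and 5.03 and 5.93 after scrambled siRNA. Their other probe sets were dimmer, with means over all 6 arrays of 3.97 or less. The defining germ cell genes Ddx4 and Dazl lay below 3.62, the 25th percentile of the mean log2 values. Of the germ cell markers, 5 lay above the median probe set level of 5.23, among them Itga6 with means of 10.23 after mrhl siRNA and 10.37 after scrambled siRNA and Uchl1 with 7.50 after mrhl siRNA and 7.49 after scrambled siRNA. Above that level were also 5 of 9 Sertoli cell markers, 7 of 11 markers of myoid cells and fibroblasts and 1 of 6 Leydig cell markers with a probe set. The Sertoli cell gene Wt1 had means of 10.84 after mrhl siRNA and 10.69 after scrambled siRNA, and the collagen gene Col1a1 had 12.50 after mrhl siRNA and 12.19 after scrambled siRNA. The Sertoli cell genes Amh, Cldn11, Fshr and Inha lay below the median level. Of the myoid cell and fibroblast genes, Myh11, Cnn1 and Tagln also lay below it, and Lum lay below 3.62.

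Of the 16 probe sets, 13, from 9 of the genes, lay above 3.62 and were tested. None passed (limma, smallest adjusted p = 0.965), as for the whole array, where 0% of the 33778 probe sets tested passed in either direction. Among the 13, 7 had negative and 6 positive differences, with a median of -0.06, beside a median of -0.03 and 56.2% negative differences over all probe sets tested. The most negative values, read through each gene's brightest probe set, were those of Phka1, Gbe1 and Phkb, and the most positive that of Pygm. The values of every probe set on every array are shown in the plot of levels by array.

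**Figure D1:**
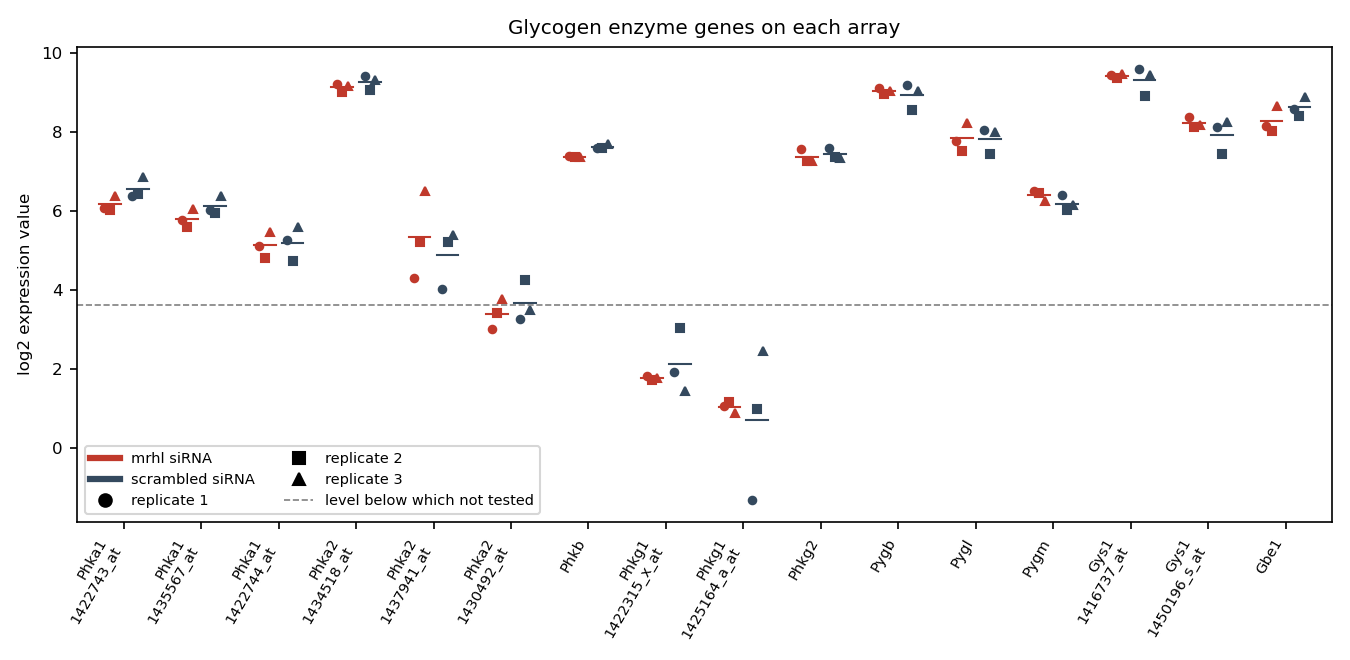
Log2 expression value (vertical axis) of the 16 probe sets of the 10 genes on each of the 6 arrays. For each probe set, mrhl siRNA arrays stand on the left and scrambled siRNA arrays on the right, bars are group means, symbols mark replicate numbers, and the dashed line is the level of 3.62 below which probe sets were not tested. Only for Phkb, among the probe sets above that line, do the groups not overlap; both Phkg1 probe sets lie below the line on all 6 arrays.

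Phkb was read through 1 probe set. Its log2 values were 7.38, 7.35 and 7.37 after mrhl siRNA, against 7.60, 7.58 and 7.69 after scrambled siRNA. All 3 mrhl siRNA arrays were below all 3 scrambled siRNA arrays, and the spread within each group was small (7.37 ± 0.01 and 7.62 ± 0.06, mean ± SD, n = 3 each). The difference of -0.25, a level 0.84 times that of the controls, did not pass (limma, SE 0.129, 95% interval -0.55 to 0.05, adjusted p = 0.965). The two-sided exact permutation test over the arrays gave p = 0.1, the smallest value that 3 arrays against 3 allow. In bulk RNA, fewer cells with the transcript and less transcript per cell cannot be told apart. Within the arrays of equal replicate number the differences were -0.22, -0.22 and -0.32. Of all probe sets tested, 14.4% had a difference as negative as that of Phkb or more so, and 5.82% had groups that did not overlap with mrhl siRNA on the lower side. Phkb was 1 of 13 probe sets with that pattern here, and 0 of 13 had the opposite one, found in 2.58% of all probe sets tested. Where on the Phkb transcript this probe set lies was not analysed here.

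The start regions of Phkb, Phka1 and Gbe1, the 3 genes with the most negative differences, are printed here. They show what lies around the starts of the host gene and of those other glycogen genes. The 3 genes were picked after the values were seen. Each runs from 250 bases before to 50 bases after the RefSeq start (GRCm38.p6), on the gene's own strand, and capitals mark motif matches.
Phkb: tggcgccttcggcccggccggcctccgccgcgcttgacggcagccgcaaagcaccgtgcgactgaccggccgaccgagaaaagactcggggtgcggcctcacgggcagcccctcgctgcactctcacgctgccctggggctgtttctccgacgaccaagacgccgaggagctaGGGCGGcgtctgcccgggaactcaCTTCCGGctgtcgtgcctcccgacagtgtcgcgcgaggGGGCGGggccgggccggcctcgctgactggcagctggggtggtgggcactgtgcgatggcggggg
Phka1: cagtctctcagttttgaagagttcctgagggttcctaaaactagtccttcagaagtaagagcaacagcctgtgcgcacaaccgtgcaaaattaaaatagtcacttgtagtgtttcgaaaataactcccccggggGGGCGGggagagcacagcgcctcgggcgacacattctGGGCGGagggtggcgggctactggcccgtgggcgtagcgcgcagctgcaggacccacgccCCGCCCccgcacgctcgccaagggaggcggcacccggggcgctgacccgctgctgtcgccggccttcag
Gbe1: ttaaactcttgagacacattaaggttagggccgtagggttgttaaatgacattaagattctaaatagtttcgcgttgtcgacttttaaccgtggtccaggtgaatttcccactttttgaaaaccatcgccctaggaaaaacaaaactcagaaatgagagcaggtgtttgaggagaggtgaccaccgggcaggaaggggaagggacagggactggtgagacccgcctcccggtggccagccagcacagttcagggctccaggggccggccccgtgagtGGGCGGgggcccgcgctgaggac
The windows are chr8:85840738-85841037 (plus strand) for Phkb, chrX:102644197-102644496 (minus strand) for Phka1 and chr16:70313699-70313998 (plus strand) for Gbe1. The motifs searched, on both strands and with no overlap among the matches printed, were the GC box GGGCGG, the CCAAT box CCAAT, the TATA box TATAAA, the E-box CACGTG, the ETS core CCGGAAG and the TCF/LEF core CTTTGAT. Phkb had 2 GC boxes and 1 ETS core, Phka1 had 3 GC boxes and Gbe1 had 1 GC box. None of the 3 windows held the other motifs. Among the other glycogen genes, the windows of Phka2, Phkg2, Pygl and Gys1 also held GC boxes, and that of Phka2 an ETS core. Those of Phkg1, Pygb and Pygm held neither motif. Over 32851 mouse promoters of this length, 35.7% held the GC box, 37.4% the CCAAT box, 13.6% the TATA box, 7.15% the E-box, 8.86% the ETS core and 3.73% the TCF/LEF core. The Phkb window had a GC content of 73.3% and 38 CpG dinucleotides, against 62.7% and 25 for Phka1, 54.3% and 14 for Gbe1, and medians of 52.7% and 7 over all promoters. It shares 138 bases with the corresponding window of its neighbour Itfg1, which is transcribed from the opposite strand.

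Itfg1 encodes a membrane protein with an integrin-like domain and starts next to Phkb. Its brighter probe set had log2 values of 8.51, 8.52 and 8.76 after mrhl siRNA, against 8.71, 8.57 and 8.81 after scrambled siRNA. The groups overlapped, and the difference was -0.10 (limma, 95% interval -0.45 to 0.25, adjusted p = 0.965). The dimmer probe set of Itfg1 had 6.73, 6.68 and 7.29 after mrhl siRNA and 7.17, 7.09 and 7.51 after scrambled siRNA, a difference of -0.36 (limma, 95% interval -0.85 to 0.14, adjusted p = 0.965). In both probe sets the mrhl siRNA array was the lower in 3 of 3 pairs of equal number.

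Of the 5 genes on each side of Phkb in gene order, 2 had a probe set, Itfg1 and Neto2; the others are listed as pseudogenes, long noncoding RNAs or a microRNA. Neto2, an auxiliary subunit gene of kainate receptors, had -0.17 (limma, 95% interval -0.52 to 0.18, adjusted p = 0.965). The 5 protein-coding genes on each side were added after seeing the data, which made 10 genes and 26 tested probe sets. Of the 26 probe sets, 21 had negative differences, the median was -0.12, none passed, and 0 of 26 had groups that did not overlap. Many of the 26 read the same gene as another and are not independent. Over all probe sets tested, 56.2% of differences were negative, the median was -0.03, and groups did not overlap in 5.82% with mrhl siRNA lower and in 2.58% with it higher. Read through their brightest probe sets, the peroxisomal protease gene Lonp2 had -0.16, the ubiquitin ligase gene Siah1a -0.15, the co-chaperone gene Dnaja2 -0.09 and the alanine aminotransferase gene Gpt2 -0.10. The transporter gene Abcc12 had -0.24, from a dim probe set, and the cerebellin gene Cbln1 had -0.35. N4bp1 was the only neighbour with a positive value there, 0.16 (limma, 95% interval -0.25 to 0.58, adjusted p = 0.965). The difference of Phkb lay within the range of these neighbours, from -0.40 for 4921524J17Rik to 0.16 for N4bp1.

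**Figure D2:**
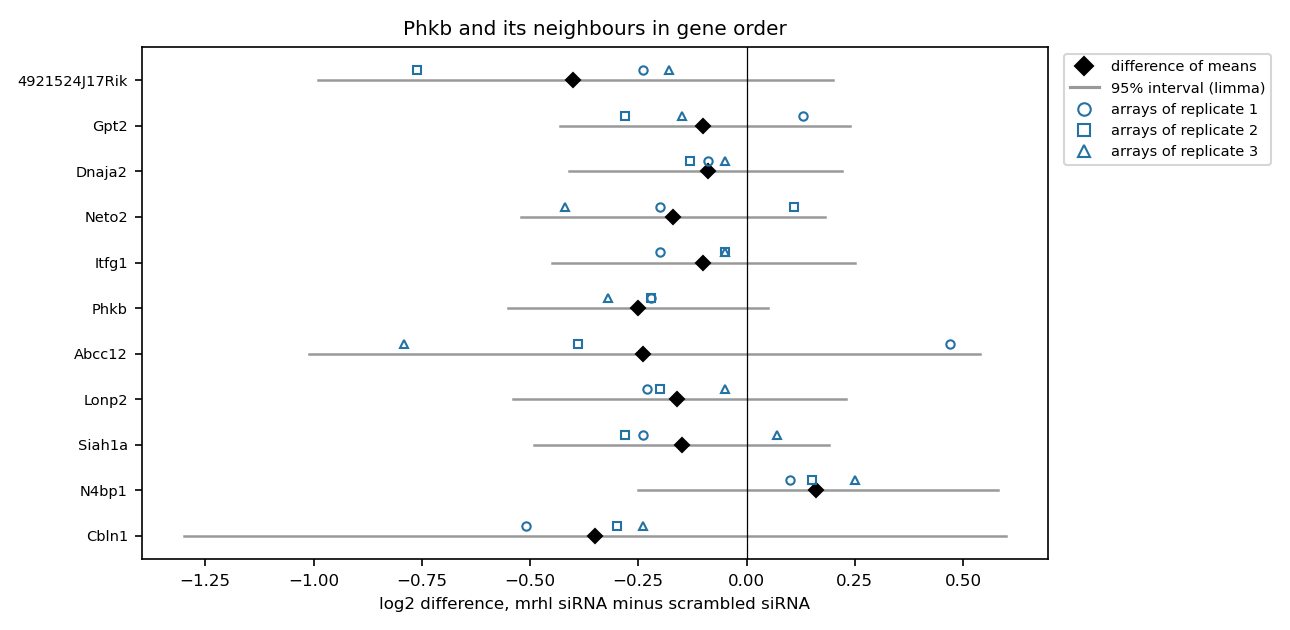
Log2 differences, mrhl siRNA minus scrambled siRNA (horizontal axis), of Phkb and its protein-coding neighbours, from top to bottom in gene order, each read through its brightest probe set. Diamonds are differences of group means with 95% intervals from limma, and open symbols are differences between arrays of equal replicate number. All intervals include 0, and 10 of the 11 diamonds lie left of 0.

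The alpha subunit genes gave unequal values among their probe sets. Phka1 was read through 3 probe sets. Its brightest had log2 values of 6.08, 6.03 and 6.38 after mrhl siRNA, against 6.38, 6.43 and 6.86 after scrambled siRNA. The groups met at 6.38, where the highest mrhl siRNA array reached the lowest control, and the difference was -0.39, a level 0.76 times that of the controls (limma, SE 0.187, 95% interval -0.83 to 0.05, adjusted p = 0.965). The second Phka1 probe set had 5.76, 5.60 and 6.05 after mrhl siRNA and 6.02, 5.95 and 6.37 after scrambled siRNA, a difference of -0.31 (limma, 95% interval -0.74 to 0.12, adjusted p = 0.965), which ran from -0.432 without mrhl siRNA replicate 3 to -0.182 without scrambled siRNA replicate 3. Both were lower after mrhl siRNA in 3 of 3 pairs, as were 23.4% of all probe sets tested. The dimmest probe set of Phka1 was lower in 2 of 3 pairs, with 5.11, 4.81 and 5.46 after mrhl siRNA and 5.25, 4.74 and 5.58 after scrambled siRNA. Its difference was -0.06 (limma, 95% interval -0.67 to 0.55, adjusted p = 0.986), and it was 0.10 without mrhl siRNA replicate 2 and 0.13 without scrambled siRNA replicate 3.

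Phka2, the other alpha subunit gene, was brightest in a probe set with 9.22, 9.0 and 9.17 after mrhl siRNA and 9.42, 9.06 and 9.30 after scrambled siRNA. The groups overlapped and the difference was -0.13 (limma, SE 0.156, 95% interval -0.50 to 0.23, adjusted p = 0.965); leaving out 1 array moved it between -0.233, without scrambled siRNA replicate 2, and -0.054, without scrambled siRNA replicate 1. A dim Phka2 probe set varied widely, with 4.30, 5.22 and 6.51 after mrhl siRNA and 4.03, 5.21 and 5.38 after scrambled siRNA. Its difference of 0.47 had a 95% interval of -0.89 to 1.82 (limma, adjusted p = 0.965) and was -0.12 without mrhl siRNA replicate 3. The remaining Phka2 probe set had means of 3.39 after mrhl siRNA and 3.67 after scrambled siRNA and was not tested.

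The catalytic subunit genes differed in whether they could be read. Phkg2 had log2 values of 7.56, 7.27 and 7.26 after mrhl siRNA, against 7.59, 7.35 and 7.34 after scrambled siRNA. The first array of each group was the highest, the groups overlapped, and the difference was -0.07 (limma, SE 0.157, 95% interval -0.43 to 0.30, adjusted p = 0.978). Phkg1 had 1.82, 1.71 and 1.78 after mrhl siRNA and 1.92, 3.03 and 1.45 after scrambled siRNA in its brighter probe set. In the other Phkg1 probe set the values were 1.05, 1.15 and 0.87 after mrhl siRNA and -1.32, 0.99 and 2.44 after scrambled siRNA. Both lay below 3.62 on all 6 arrays, so no comparison was made for Phkg1. No probe set was paired with a single calmodulin gene, and the delta subunit is not analysed here.

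The 3 glycogen phosphorylase genes had differences between 0.00 and 0.21. Pygb, the form best known from brain, had 9.12, 8.95 and 9.03 after mrhl siRNA, against 9.19, 8.55 and 9.02 after scrambled siRNA. The second control array was the lowest of all 6, the groups overlapped, and the difference was 0.11 (limma, 95% interval -0.34 to 0.56, adjusted p = 0.969). Pygl, the liver form, had 7.76, 7.52 and 8.21 after mrhl siRNA and 8.05, 7.44 and 7.99 after scrambled siRNA, with means of 7.83 in both groups (limma, 95% interval -0.56 to 0.57, adjusted p = 0.999). Pygm, the muscle form, had 6.50, 6.44 and 6.26 after mrhl siRNA and 6.40, 6.01 and 6.14 after scrambled siRNA. Its difference of 0.21 was positive in 3 of 3 pairs, as were 14.1% of all probe sets tested, and did not pass (limma, SE 0.161, 95% interval -0.16 to 0.59, adjusted p = 0.965). Of 13 skeletal muscle markers 8 were tested and 7 of these had positive differences, with a median of 0.28, and none passed (limma, smallest adjusted p = 0.965). Among all 14885 genes tested, 57.9% of differences were negative and the median was -0.04. The median difference of the markers was 0.05, 0.58 and 0.25 in the pairs of replicates 1, 2 and 3. Of the 8 markers, 3 lay below the median level. The linear values of the 8 markers were summed on each array, which weights the brightest genes most. The log2 of that sum ran from 8.32 to 8.81 after mrhl siRNA and from 8.14 to 8.72 after scrambled siRNA. Myog, Myh1, Myh2, Myh4 and Tnnt3 lay below 3.62. The part of muscle genes in the difference of Pygm was not tested. Of 10 liver markers, set beside the liver form Pygl, 5 were tested, none lay above the median level, and Alb lay below 3.62.

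The synthetic side was represented by Gys1 and Gbe1, whose differences had opposite signs. Gys1, the synthase gene of muscle and most other tissues, had 9.44, 9.36 and 9.45 after mrhl siRNA in its brighter probe set, against 9.60, 8.91 and 9.44 after scrambled siRNA. The mrhl siRNA arrays lay inside the range of the controls, and the difference was 0.10 (limma, 95% interval -0.37 to 0.57, adjusted p = 0.974). Its other probe set had 8.38, 8.13 and 8.17 after mrhl siRNA and 8.12, 7.43 and 8.24 after scrambled siRNA, a difference of 0.29 (limma, 95% interval -0.25 to 0.84, adjusted p = 0.965). Gbe1, the only glycogen branching enzyme gene, had 8.14, 8.01 and 8.64 after mrhl siRNA, against 8.58, 8.40 and 8.89 after scrambled siRNA. The groups overlapped, replicate 3 was the highest in each, and the pairs of equal number differed by -0.44, -0.38 and -0.25. The difference of Gbe1 was -0.36, a level 0.78 times that of the controls (limma, SE 0.216, 95% interval -0.87 to 0.15, adjusted p = 0.965).

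**Figure D3:**
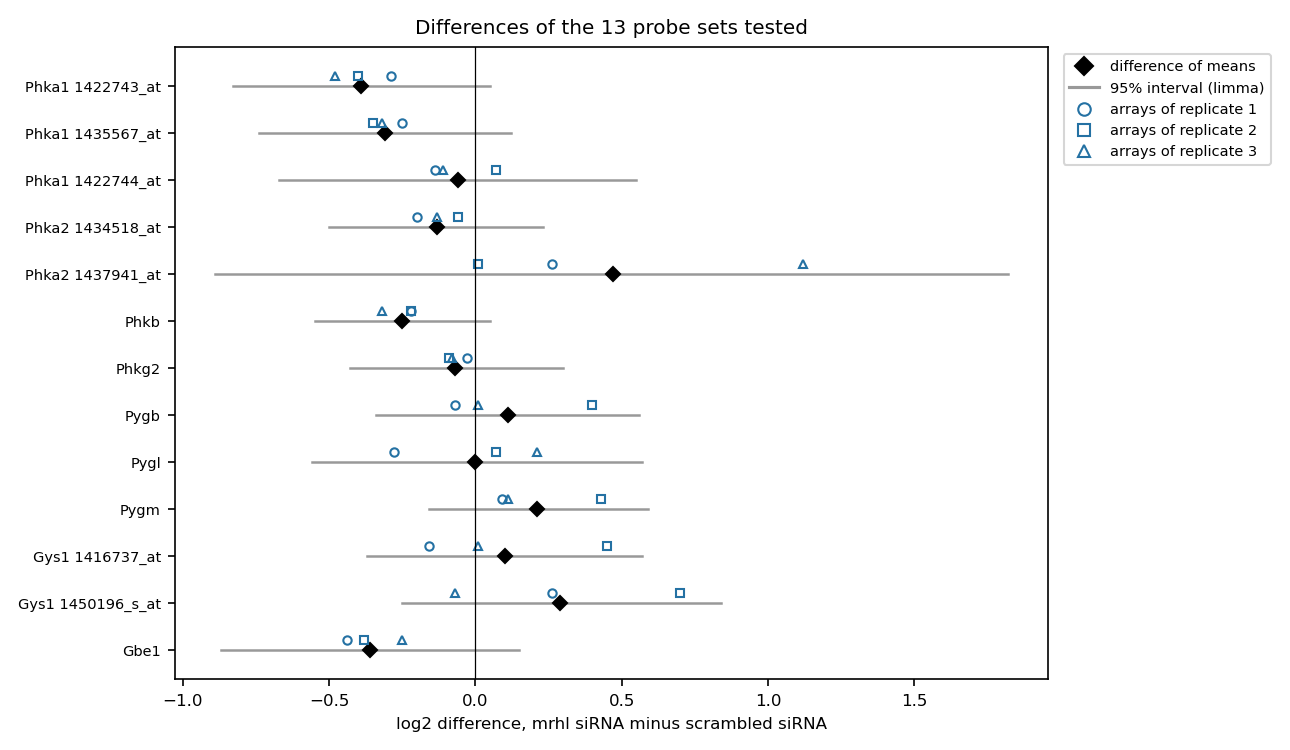
Log2 differences, mrhl siRNA minus scrambled siRNA (horizontal axis), of the 13 probe sets tested. Diamonds are differences of group means with 95% intervals from limma, and open symbols are differences between arrays of equal replicate number. All intervals include 0. In 6 of the 13 all open symbols lie left of 0: Phkb, Gbe1, Phkg2, the 2 brighter Phka1 probe sets and the brightest of Phka2. In 2 of the 13, Pygm and the dim Phka2 probe set, all lie right of 0. Over all probe sets tested, 23.4% were lower and 14.1% higher in 3 of 3 pairs. The open symbols of Gys1 and Pygb are spread by replicate 2.

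With the replicate number as a block, which removes differences shared by arrays of equal number, 3 of the 13 probe sets had an unadjusted p under 0.05, all with negative differences, against 0 of 13 without it. They were the 2 brighter probe sets of Phka1 (limma, unadjusted p = 0.0157 and 0.0323) and that of Gbe1 (limma, unadjusted p = 0.0218). Over all probe sets tested, 10.1% reached that level with the block, 6.23% on the lower and 3.87% on the higher side. Without the block 3.44% did, 2.18% on the lower and 1.26% on the higher side. None passed after adjustment (limma, adjusted p = 0.487 for Phka1 and Gbe1 and 0.505 for Phkb, with the block).

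Scrambled siRNA replicate 2 was the lowest of the 6 arrays in 6 of the 13 probe sets, those of Pygb, Pygl, Pygm, both of Gys1 and the dimmest of Phka1. Over all probe sets tested it was the lowest in 18%. Without that array the differences were -0.07 for Pygb, -0.19 for Pygl, 0.13 for Pygm, and -0.10 and 0.045 for the brighter and dimmer probe sets of Gys1, so the signs of Pygb, Pygl and the brighter Gys1 probe set rested on it. Pygl was also negative, at -0.185, without mrhl siRNA replicate 3, and Phkg2 was at 0.014 without scrambled siRNA replicate 1. mrhl siRNA replicate 2 was the lowest in 5 of the 13, including those of Phkb and Gbe1, and in 25.7% of all probe sets tested. Leaving out any single array kept the difference of Phkb between -0.276 and -0.219, that of Gbe1 between -0.545 and -0.225 and that of the brightest Phka1 probe set between -0.500 and -0.239.

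A further list of 16 genes was drawn around glycogen synthesis and breakdown. It also holds genes not specific to glycogen, such as Hk1, Hk2, G6pc, Slc37a4, Pgm3 and Pgm5. Of the 16, 14 had a probe set and 13 were tested. None passed in either direction (limma, smallest adjusted p = 0.965), 6 had positive and 7 negative differences, and the median was -0.04, beside -0.04 and 57.9% negative differences over all 14885 genes tested. The groups did not overlap in 2 of the 13, both with mrhl siRNA on the lower side, a pattern found in 6.13% of all genes; the opposite one was found in 2.3%. Pgm2l1, which makes the phosphoglucomutase cofactor glucose bisphosphate, was one, with 5.93, 5.64 and 5.96 after mrhl siRNA and 6.15, 6.32 and 6.24 after scrambled siRNA (difference -0.39; limma, 95% interval -0.74 to -0.04, adjusted p = 0.965). A dimmer Pgm2l1 probe set had -0.64 and another had 0.18.

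Ugp2, which supplies the UDP-glucose that glycogen synthase uses, was the other. Its brightest probe set had 11.25, 11.13 and 11.29 after mrhl siRNA, against 11.48, 11.39 and 11.38 after scrambled siRNA, a difference of -0.19 (limma, 95% interval -0.50 to 0.12, adjusted p = 0.965). All 5 Ugp2 probe sets, which read the same gene and are not independent, had groups that did not overlap, with differences between -0.31 and -0.11. Over all probe sets tested, groups did not overlap in 5.82% with mrhl siRNA lower and in 2.58% with it higher. Gyg, the gene of the primer protein glycogenin, had 8.66, 8.45 and 8.88 after mrhl siRNA and 8.94, 8.85 and 8.91 after scrambled siRNA, a difference of -0.24 (limma, 95% interval -0.61 to 0.13, adjusted p = 0.965). Gaa, the lysosomal enzyme that degrades glycogen, had a difference of 0.14 (limma, 95% interval -0.35 to 0.63, adjusted p = 0.966), and its lowest array was again scrambled siRNA replicate 2.

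Protein phosphatase 1 reverses the phosphorylation of these enzymes, and its targeting subunits bring it to glycogen. Of 13 genes of that phosphatase and of laforin, malin and glycogen binding, 11 were tested, none passed (limma, smallest adjusted p = 0.965), and the median difference was -0.001, with 5 positive and 6 negative. The targeting subunit genes Ppp1r3c and Ppp1r3d had -0.44 (limma, 95% interval -1.15 to 0.27, adjusted p = 0.965) and -0.17 (limma, adjusted p = 0.965), and the catalytic subunit gene Ppp1cc had -0.12 (limma, adjusted p = 0.965). Of 18 kinase subunit genes acting upstream of glycogen enzymes, all 18 were tested and none passed (limma, smallest adjusted p = 0.965). Their median was -0.10, with 5 positive and 13 negative.

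Within that list the AMP-activated kinase subunit genes Prkab2, whose product can bind glycogen, and Prkaa2 had the smallest p, with differences of -0.43 (limma, 95% interval -0.94 to 0.07, adjusted p = 0.965) and -0.39 (limma, 95% interval -0.90 to 0.12, adjusted p = 0.965). Akt1, a kinase of insulin signalling, had 0.26 (limma, 95% interval -0.11 to 0.62, adjusted p = 0.965), and its second probe set had 0.57 (limma, 95% interval 0.10 to 1.03, adjusted p = 0.965). The dimmest tested Akt1 probe set had -0.03. The glycogen synthase kinase genes Gsk3a and Gsk3b had 0.19 (limma, adjusted p = 0.965) and -0.19 (limma, adjusted p = 0.965); the other 5 probe sets of Gsk3b lay between -0.10 and 0.83. The groups did not overlap in 2 of the 18, the protein kinase A regulatory subunit gene Prkar2a (-0.21) and the casein kinase gene Csnk2a1 (-0.15), which were named after their values were seen, beside 6.13% of all genes with mrhl siRNA on the lower side and 2.3% on the higher side. The other 4 tested probe sets of Csnk2a1 lay between -0.39 and 0.67, and the other tested ones of Prkar2a between -0.15 and 0.15, all with overlapping groups.

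**Figure D4:**
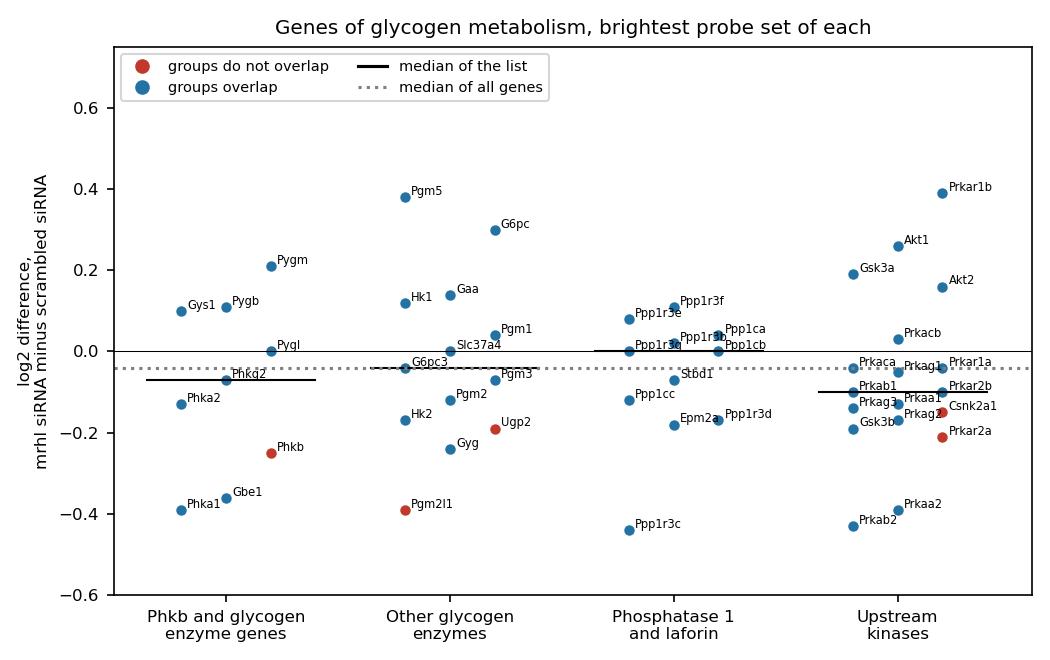
Log2 difference, mrhl siRNA minus scrambled siRNA (vertical axis), of each tested gene of 4 lists, read through its brightest probe set. Each point is a gene, red where the groups do not overlap and blue where they do; solid bars are list medians and the dotted line is the median of all genes, -0.04. The 3 lists beside the glycogen enzyme genes have medians of -0.04, -0.001 and -0.10.

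Among 22387 other probe sets with a single named gene and at least the spread of Phkb over the 6 arrays, the 5 genes most like it by Pearson correlation were Sgk3, Icam5, Uevld, Isoc1 and Zbtb10, with r from 0.993 for Sgk3 to 0.981 for Isoc1 and Zbtb10 (n = 6 arrays). Spearman's rho ran from 0.829 for Isoc1 to 0.943. Without the 2 arrays farthest from the median of Phkb, mrhl siRNA replicate 2 and scrambled siRNA replicate 3, r ran from 0.976 to 0.992. Both groups were still present among the arrays left, so a group difference alone could give a high r there. These correlations are a description: the arrays share the group difference and the replicate pairs, and 180 of the candidates had an r of at least 0.9. Sgk3, a kinase gene of the serum- and glucocorticoid-regulated family, had 5.61, 5.60 and 5.65 after mrhl siRNA and 6.00, 5.99 and 6.25 after scrambled siRNA. Isoc1 had 6.60, 6.62 and 6.67 after mrhl siRNA, against 7.06, 7.05 and 7.12 after scrambled siRNA. In all 5 genes the groups did not overlap, with mrhl siRNA on the lower side, as in 5.82% of all probe sets tested. Their differences lay between -0.58 and -0.32, and none passed (limma, adjusted p = 0.965 for each). Because they were picked for likeness to Phkb, whose groups lie apart in the same way, this pattern follows largely from that choice. Among the other glycogen genes the closest to Phkb by the same measure were the brightest probe set of Phka1 (r = 0.84) and that of Gbe1 (r = 0.71), and the farthest was Pygm (r = -0.59).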

How the data were processed

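RNA from 6 samples was measured on 6 Affymetrix arrays. The authors deposited 1 log2 expression value per probe set and array; GCOS and PLIER made them, per the submitters' processing notes, with versions and settings that were not given in the sources used here, and whether arrays were normalized against each other is unknown. The range of the values gave the log2 scale, and they were used as deposited.

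Of 45101 rows, 64 control rows were left out. Platform annotation paired 34945 probe sets with 1 gene symbol and 932 with several, and left 9160 unlisted; of the 34945, 34741 had a gene ID in the RefSeq gene table of GRCm38.p6, including all 16 of the probe sets described. A gene in a list was read through its brightest tested probe set. Probe sets with a mean under the 25th percentile (3.62) were left out, and the other 33778 were compared as mrhl siRNA minus scrambled siRNA with limma 3.58.1 in R 4.3.3 (lmFit, eBayes), with Benjamini-Hochberg adjustment over all of them and a threshold of 0.05. The fit was tested on simulated data with independent noise on each array. Those data held no replicate pairs and only planted changes larger than the differences of the glycogen probe sets tested. They therefore do not bear on differences as small as these. Precision is limited by the number of arrays (median standard error of a difference 0.192), and p-values measure only the spread between these samples.

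The genes described and the lists were chosen with earlier results of these data known. Beside the 10 glycogen genes, the text names by rule the 3 genes of smallest p in each of the other glycogen lists, Gyg, Ugp2, Gsk3a, Gsk3b, the calmodulin genes and Gaa, the genes next to Phkb and the 5 genes most like it; 1 further gene that the rule names is not reported here. Cell type markers, named for their known role or their level, and the protein-coding neighbours are outside that rule.

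Equal replicate numbers were read as pairs: deviations from the group means correlated at 0.534, 0.201 and 0.567 for equal numbers, all above 0.1, and at -0.518 to 0.0684 for unequal ones. Deviations from a group mean cancel within the group, so the lower values for unequal numbers are not separate evidence. The sample names number the replicates but do not state that equal numbers belong together, so the pairing was read from these values. The alternatives tried were an offset of 16, quantile normalization, subtraction of each array's median, a level filter at the median or none, a trended and robust variance model, the replicate block with and without that model, and each array left out. Promoter sequences are RefSeq's.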

Additional observations from a re-analysis of the deposited data

How the results depend on the processing

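The difference of Phkb stayed negative and short of the threshold under all 14 alternatives run (limma, adjusted p from 0.373 to 1), and the same held for Gbe1 (0.26 to 1) and the brightest Phka1 probe set (0.291 to 1). With the replicate block 0 probe sets of the whole array passed, as in the fit without it. The block changed no call among the glycogen genes. It moved the number of their 13 probe sets with an unadjusted p under 0.05 to 3, from 0. Over all probe sets tested, 10.1% reached that level with the block and 3.44% without it. The block with the trended, robust model passed 2 probe sets of the whole array, none of these 13, of which 4 had an unadjusted p under 0.05 there and 1 after quantile normalization. Counted by an unadjusted p under 0.05 without a block, 1163 probe sets were called, and 2839 had groups that did not overlap. Leaving out each array in turn moved the median difference of the 13 probe sets between -0.189 and 0.098 and turned the sign of 6 single probe sets, which ranged from -0.287 to 0.132 for the dimmest of Phka1, -0.115 to 0.988 for the dim one of Phka2, -0.164 to 0.014 for Phkg2, -0.071 to 0.249 for Pygb, -0.189 to 0.159 for Pygl and -0.103 to 0.244 for the brighter one of Gys1. The arrays that turned them were mrhl siRNA replicates 2 and 3 and scrambled siRNA replicates 1, 2 and 3; the cause was not tested. Without mrhl siRNA replicate 3 an unadjusted p under 0.05 was reached by 2 of the 13. For that fit, quantile normalization and the block with the trended, robust model, the share of all probe sets at that level is not given. Whether the counts among the 13 exceed it there cannot be told. A filter at the median level left 11 of the 13 to test. Signal over background is unknown for these values.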
